A study of Mus musculus with 4 samples.

Results

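The cells that the authors named CD8_Effector, effector CD8 T cells by their label, were described from a deposited table of cell type markers. The members were the 94 rows of that table assigned to CD8_Effector, out of 4422 rows that covered 1679 genes and 21 cell types. A row, called a listing here, is a gene whose deposited average was higher in the cells of a type than in all other cells, with a log2 fold change of 0.25 or more and a raw p-value no larger than 0.0095. The ratio of the deposited adjusted to raw p-values was 2000, the number of features that the adjustment counted for each type, so CD8_Effector listed 4.70% of them. Fewer may have been tested, because the ratio does not show a filter applied before the test. The 198 listings of CD8_Naive, the other CD8 T cell type, made up 9.90%. Of the 94 CD8_Effector genes, 65 had a deposited adjusted p-value under 0.05 (3.25% of the 2000 features) and 29 did not.

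The cells were taken from the liver and lung of BALB/c mice, wild type and aged 8 weeks, which received daily intraperitoneal injections of PBS or of 0.5 µg recombinant IL-33 (rIL-33) over 5 days. IL-33 is an alarmin that activates group 2 innate lymphoid cells (ILC2s), the cells the study set out to collect. There were 4 groups with 1 library each, namely liver and lung after rIL-33 and liver and lung after PBS, and the tissue of 2 to 6 mice was pooled for each group. All groups shared a gate that kept CD127+Thy1+ST2+ cells and removed cells bound by antibodies to CD3e, TCRb, Ly6G, Ly6c, CD11b, CD45R or TER119. The marker table pooled the 4 libraries and held no depth or cell number, so organ and treatment could not be compared and no value below has a replicate. Each type was set against all other cells by the authors over the same cells that had been clustered, which is no independent test, and the values are given as descriptions. The deposited p-values over cells are quoted only to mark which listings pass an adjusted p-value of 0.05, and no further p-value was computed.

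CD8 T cells recognize peptides on MHC class I through an αβ T cell receptor, helped by the CD8 coreceptor. After activation by antigen, naive CD8 T cells, which recirculate through lymph nodes by way of CCR7, lose that program and become effector cells. Effector cells kill targets through perforin and granzymes released from cytotoxic granules and secrete interferon gamma and chemokines. Much of this machinery is shared with natural killer (NK) cells and with type 1 innate lymphoid cells (ILC1s).

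The names of the types are the authors' own annotation from cluster markers, so the genes that fit a name are a description of it. *Cd8b1*, the beta chain of the coreceptor, had the largest log2 fold change of the 94 genes (3.15), with a deposited value above 0 in 90.6% of CD8_Effector cells and in 62.4% of all other cells. *Gzma*, which encodes granzyme A, was listed with a log2 fold change of 2.10 and shares of 58.1% and 40.7%. None of 9 gamma delta T cell markers, 7 CD4 and regulatory T cell markers, 13 ILC2 markers, 12 B cell markers, 10 myeloid markers, 6 hepatocyte markers or 6 lung epithelial markers was listed for CD8_Effector. Of these lists 9, 6, 11, 12, 4, 0 and 1 genes, respectively, were listed for at least 1 type, so the last 3 lists could hardly have shown such cells. A gene without a listing may be lower in a type, similar to other cells, too rare, or outside the 2000 features, and these cases cannot be separated. No ribosomal protein gene (symbols starting Rpl or Rps) and no gene of the mitochondrial genome was in the table for any type.

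CD8_Effector was a small type. Its size, solved by least squares from the deposited shares of 1045 genes listed for more than 1 type, was 0.660% ± 0.0303 of all cells (standard error of the fit), rank 18 of 21. CD8_Naive held 2.71% ± 0.0206 and ranked 9. CD8_Effector also had the next to fewest listings of the 21 types, and a small type has few cells behind each of its averages.

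The deposited shares cannot be read as the share of cells in which a transcript was detected. *Cd3e*, whose protein the sort selected against, had a value above 0 in 83.5% of all cells. In a separate deposited table of ILC2 subclusters the share worked out to 5.76% of ILC2s. ILC2s made up 45.0% of cells by their solved sizes, so even if every other cell had the gene, the share in all cells could not exceed 57.6%. Of 57 CD8_Effector genes found in both tables, 22 exceeded such a ceiling, among them *Cd3e*, *Ccl5*, *Nkg7*, *Lck* and *Lef1*. The ceiling assumes that the ILC2s of the subcluster table are the types ILC2 and ILC2_2. The methods describe a merged matrix whose counts were scaled and centered. They do not state which values this table was computed from, and these may have been scaled or integrated across libraries. What follows are therefore differences in deposited values rather than in expression.

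The T cell receptor and coreceptor genes made up the largest group. Of 20 genes on this list, 16 were listed for at least 1 type and 15 for CD8_Effector, all 15 with an adjusted p-value under 0.05 and with a median log2 fold change of 1.12, against 0.79 for all 94 genes and 0.60 for the whole table. *Cd8a*, the alpha chain of the coreceptor, had a log2 fold change of 2.51 (74.9% of CD8_Effector cells and 62.1% of other cells) and was listed for no type but the CD8 pair. Both coreceptor genes lie on the plus strand of chromosome 6 (GRCm38, GENCODE M21), *Cd8b1* at chr6:71322788-71337494 and *Cd8a* at chr6:71373427-71379173. *Trac*, the constant region of the receptor alpha chain, reached 1.90 (93.6% and 70.9%), below CD4 (2.14) and Treg (2.12). The CD3 signalling chains *Cd3e*, *Cd3d* and *Cd3g* had log2 fold changes of 1.17, 1.06 and 0.79 with shares of 96.1%, 91.1% and 97.0%. *Lck*, the kinase that phosphorylates CD3, had 1.13 and was higher there than in the other 9 types that listed it. *Cd6*, a surface receptor that tunes T cell receptor signals, stood at 1.82 (74.4% and 66.0%), also the highest of its 7 listing types. *Trbc1* (1.0) and *Trbc2* (0.62) encode near-identical constant regions, and reads may have been split between them. *Thy1*, an antigen the sort selected for, was at 1.07 (90.6% and 86.3%). The share of cells was smaller in CD8_Effector than in other cells for 5 of the 15 genes, namely *Cd5* (1.19, 60.1% and 67.2%), *Themis* (1.12, 58.6% and 69.0%), *Trbc1* (79.3% and 87.3%), *Cd28* (0.96, 79.8% and 82.2%) and *Cd2* (0.80, 81.3% and 83.0%).

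Cytotoxic genes were listed mainly for CD8_Effector of the CD8 pair. Of 14 lytic genes, 12 were listed for at least 1 type, 8 for CD8_Effector (7 with an adjusted p-value under 0.05) and 2 for CD8_Naive, with medians of 1.48 and 0.67. *Gzmk*, encoding granzyme K, had a log2 fold change of 2.39 with shares of 65.5% and 42.9%. The only other type that listed *Gzmk* was NK, at 0.26 and 42.3%. *Gzma* was listed for NK (4.24, 89.6%) and for the type named Prolifelation cell (1.68, 90.4%), and both shares lay above the 58.1% of CD8_Effector. *Gzmb*, encoding granzyme B, was at 2.06, between Basophil (2.45) and NK (1.93), yet its share of 53.7% was close to the 53.6% of all other cells. *Nkg7*, a granule membrane protein, was at 1.84 and in 98.0% of the cells, below NK (2.41) and above ILC1 (1.62) and CD8_Naive (0.59, 96.4%). *Prf1*, the pore-forming perforin, was at 1.12 (63.1% and 61.0%) and *Ctsd*, a lysosomal protease, at 0.76. *Fasl*, the death receptor ligand, was at 0.97 with a smaller share than other cells (55.7% and 68.3%) and an adjusted p-value of 1. *Ctsw*, cathepsin W, was at 0.53, below its 0.76 in CD8_Naive. *Gzmm*, *Gzmc*, *Serpinb9* and *Serpinb6b* were not listed for CD8_Effector, and *Cst7* and *Srgn* were listed for no type.

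The promoters of 5 of these lytic genes are shown because they carry matches to motifs of factors known to act in cytotoxic lymphocytes, the T-box factors T-bet and Eomes (TCACACC) and the RUNX factors (TGTGGT). They were picked for their matches, and the promoters of *Fasl* and *Ctsd*, lytic genes also in the RefSeq table, held neither motif. Each sequence gives the 150 bases before the RefSeq start of the gene, 5′ to 3′ on the gene's own strand (GRCm38.p6), with motif matches on either strand in capitals. The windows are chr13:113100982-113101131 (minus strand), chr14:56262335-56262484 (minus), chr13:113180966-113181115 (minus), chr7:43436988-43437137 (plus) and chr10:61297686-61297835 (plus).
Gzma: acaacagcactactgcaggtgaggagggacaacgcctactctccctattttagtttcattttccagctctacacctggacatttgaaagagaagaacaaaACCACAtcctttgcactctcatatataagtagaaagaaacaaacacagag
Gzmb: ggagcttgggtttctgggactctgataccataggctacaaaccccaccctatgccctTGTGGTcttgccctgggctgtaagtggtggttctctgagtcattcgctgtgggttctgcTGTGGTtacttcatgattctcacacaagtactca
Gzmk: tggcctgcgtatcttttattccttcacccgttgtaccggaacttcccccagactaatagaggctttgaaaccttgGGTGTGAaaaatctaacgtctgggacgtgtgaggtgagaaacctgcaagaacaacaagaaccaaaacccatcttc
Nkg7: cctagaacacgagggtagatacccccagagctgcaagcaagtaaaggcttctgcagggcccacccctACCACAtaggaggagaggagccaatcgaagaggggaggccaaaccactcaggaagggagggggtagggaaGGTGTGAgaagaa
Prf1: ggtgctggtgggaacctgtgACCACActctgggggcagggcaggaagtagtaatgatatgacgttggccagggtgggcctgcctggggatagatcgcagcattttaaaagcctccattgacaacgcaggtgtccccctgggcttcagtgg
Counted from the start, the RUNX letters begin at -50 in *Gzma*, at -93 and -34 in *Gzmb*, at -83 in *Nkg7* and at -130 in *Prf1*, and the T-box letters at -75 in *Gzmk* and at -13 in *Nkg7*. GENCODE M21 starts some of these genes further upstream, *Nkg7* at chr7:43437073-43438249 and *Gzmk* at chr13:113171608-113225908. By those starts the T-box letters of both genes lie inside the gene rather than before it.

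The same motifs were counted in all promoters of the RefSeq table (250 bases before to 50 after the start, both strands, overlapping matches of the 2 motifs counted for each, as in *Cd48*), which held 69 of the 94 genes. Among genes listed for CD8_Effector and not for CD8_Naive, 12 of 36 promoters (33.3%) had the RUNX letters, among them *Gzma*, *Gzmb*, *Prf1*, *Cx3cr1*, *Itga4* and *Klrk1*. The share was 7 of 33 (21.2%) for genes of both types, 18 of 122 (14.8%) for genes of CD8_Naive alone of the pair and 18.9% of the 27025 genes in the table. The T-box letters were in 5 of 36 (13.9%), 1 of 33 (3.03%), 9 of 122 (7.38%) and 4.60%, respectively, and the 5 genes were *Gzmk*, *Itga4*, *Cd48*, *Stard10* and *Txndc5*. A match is a description of these letters and not a binding site. Several of the genes lie close together, such as *Klrc1*, *Klrc2* and *Klrk1* on chromosome 6, and are not independent.

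**Figure D1:**
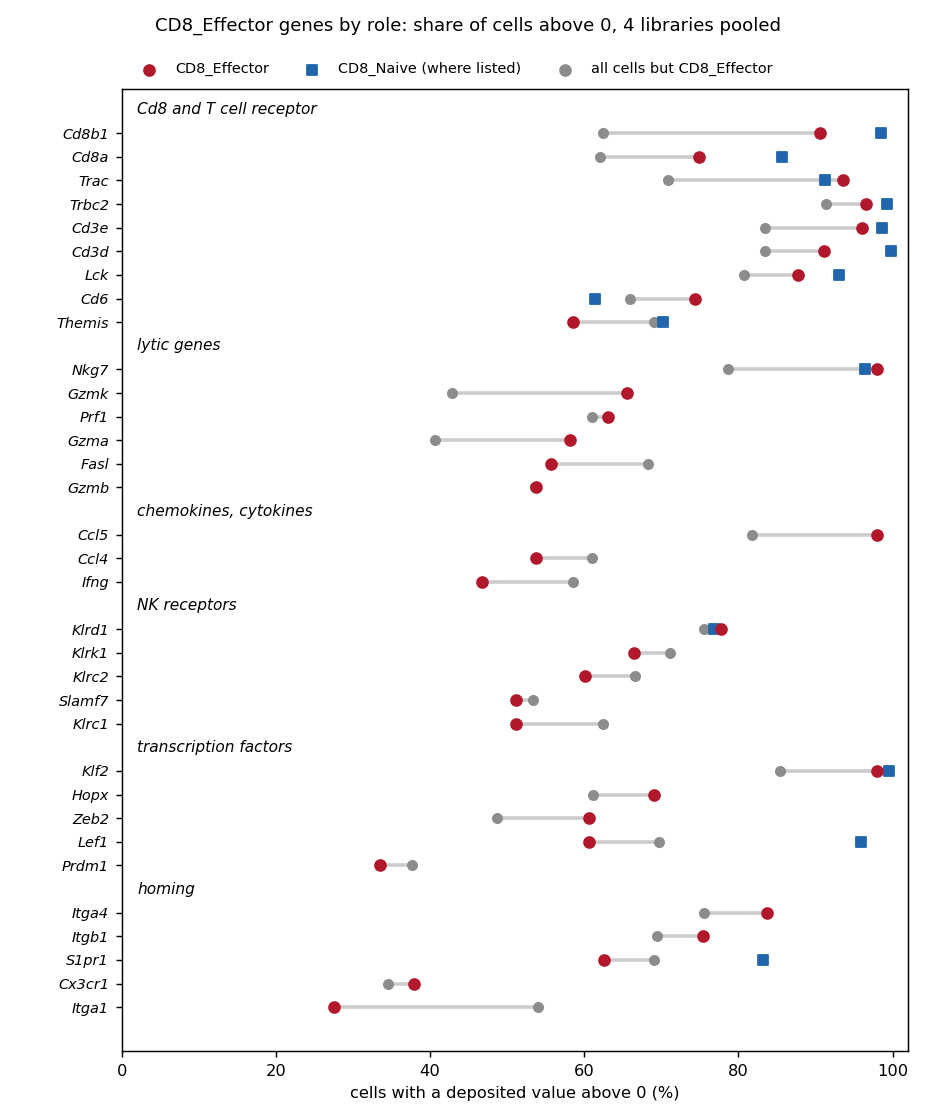
Share of cells with a deposited value above 0 (%) for CD8_Effector genes grouped by role, in CD8_Effector (circles), all other cells (grey circles) and, where the gene was listed, CD8_Naive (squares). *Gzmk* differed by 22.6 percentage points between CD8_Effector and other cells, *Gzmb* by 0.1 points, and *Itga1*, *Fasl* and *Ifng* had smaller shares in CD8_Effector.

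Chemokines and cytokines of effector cells were listed for CD8_Effector in 3 of 10 cases and for CD8_Naive in none. *Ccl5*, a chemokine that attracts T cells and monocytes, had a log2 fold change of 3.15 with shares of 98.0% and 81.8%, and lies on the minus strand at chr11:83525778-83530518. The fold change was higher than in NK (2.66), gdT_TypeI (2.22) and ILC1 (1.65), the other types that listed it. *Ifng*, the defining cytokine of type 1 responses, was at 1.18, within the range of gdT_TypeI (1.31), ILC1 (1.12) and NK (0.84), but its share was 46.8% against 58.5% in other cells and its adjusted p-value was 1. *Ccl4*, another chemokine, was at 0.71 (53.7% and 61.0%), far below Basophil (7.10). *Xcl1*, *Ccl3*, *Tnf*, *Csf2*, *Il2* and *Lta* were not listed for CD8_Effector, and *Xcl1* was listed for ILC1 at 2.93 and for NK at 1.57.

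Of 19 NK cell receptor genes, 16 were listed for at least 1 type and 5 for CD8_Effector. *Klrd1* (CD94), the partner chain of the NKG2 receptors, was at 1.14, *Klrc2* (NKG2C, activating) at 1.32, *Klrc1* (NKG2A, inhibitory) at 0.94 and *Klrk1* (NKG2D, activating) at 1.01. *Slamf7*, a receptor of activated lymphocytes, was at 1.32 and was highest in CD8_Effector among its 5 listing types. For 4 of the 5 genes, all but *Klrd1*, the share of cells was smaller than in other cells, and the adjusted p-value of *Klrc1* was 1. *Klrc1* and *Klrc2* are close paralogs whose reads may be confused. The NK receptor *Ncr1* (2.95 in NK), the adaptors *Tyrobp* (3.09) and *Fcer1g* (2.61), and *Klrb1c* (1.51) were not listed for CD8_Effector. *Klrg1* was listed for ILC2 (0.74) and NK (0.26) and for neither CD8 type. Of the NK receptor list, CD8_Naive had *Klrd1* alone, at 0.38.

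**Figure D2:**
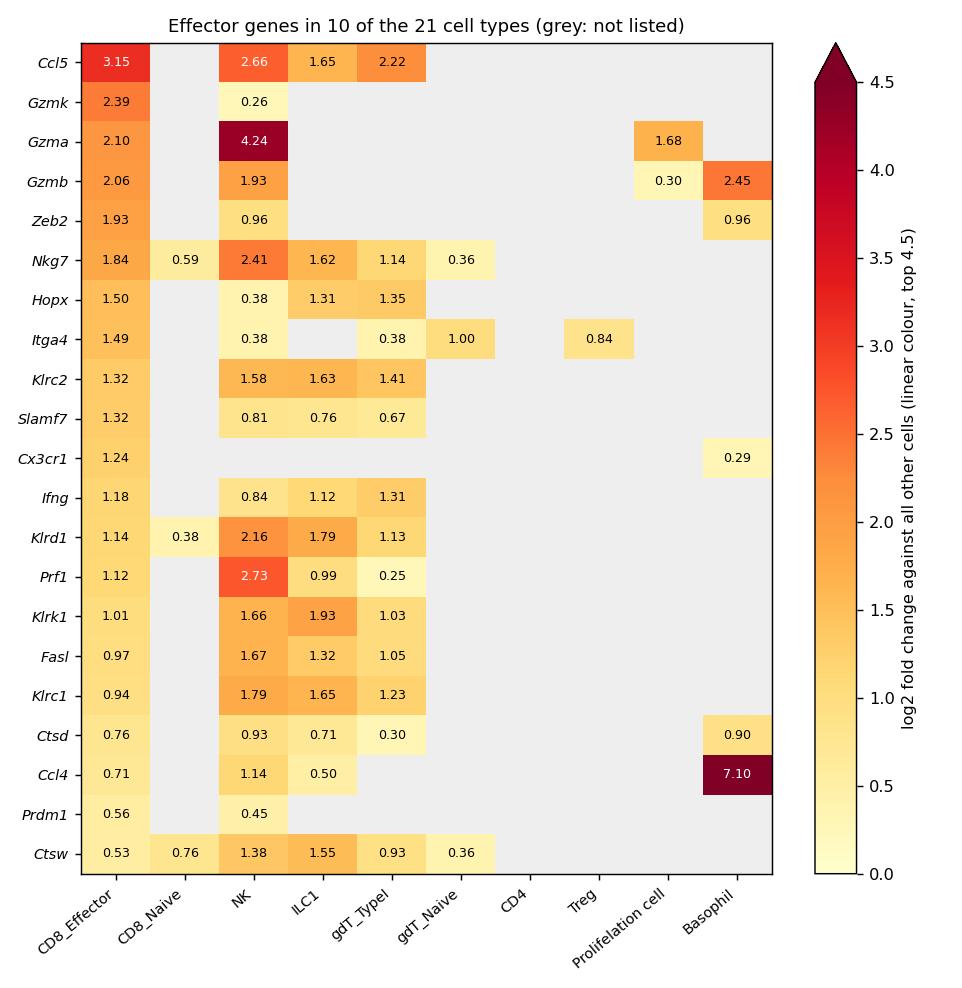
Deposited log2 fold changes (cell colour and printed value) of CD8_Effector genes of the cytotoxic, cytokine, NK receptor, transcription factor and homing lists in 10 of the 21 cell types, grey where a gene was not listed. *Ccl5*, *Gzmk*, *Zeb2*, *Hopx*, *Itga4*, *Slamf7* and *Cx3cr1* are highest in CD8_Effector, while *Gzma* is highest in NK at 4.24.

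Among 13 transcription factors of effector and memory cells, 3 were listed for CD8_Effector, all with an adjusted p-value under 0.05. *Zeb2*, a repressor known from terminally differentiated effector T cells, had a log2 fold change of 1.93 (60.6% and 48.7%) and was higher than in the other 6 types that listed it, with NK and Basophil next at 0.96. *Hopx*, a homeodomain-only protein, was at 1.5 (69.0% and 61.1%), ahead of gdT_TypeI (1.35) and ILC1 (1.31). *Prdm1*, encoding BLIMP-1, was at 0.56 (33.5% and 37.7%). *Tbx21* and *Eomes*, which encode T-bet and Eomes, were not listed for CD8_Effector. *Tbx21* was listed for ILC1 (0.78), NK (0.66) and ILC2_2 (0.26). *Eomes* was listed for NK (2.30), CD8_Naive (0.44), Prolifelation cell (0.32) and gdT_TypeI (0.28). Its share in CD8_Naive was smaller than in other cells (34.1% and 65.7%). None of the 9 genes on the list of inhibitory and costimulatory receptors, of which 6 were listed for at least 1 type, was listed for either CD8 type. The costimulatory receptors *Cd28* and *Cd27* were kept on the T cell receptor list instead. *Cd28* was listed for CD8_Effector (0.96) and CD8_Naive (0.90), and *Cd27* for CD8_Naive (0.98) and not for CD8_Effector.

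Homing and tissue residence genes were listed in 5 of 20 cases. *Itga4* and *Itgb1*, the chains of the integrin VLA-4, were at 1.49 (83.7% and 75.6%) and 0.97 (75.4% and 69.5%). *Itga4* was highest in CD8_Effector of its 6 listing types, whereas *Itgb1* was highest in Treg (2.0). *Cx3cr1*, the fractalkine receptor of circulating effector cells, was at 1.24 with shares of 37.9% and 34.5%, and Basophil (0.29) was the only other type with a listing. *Itga1* (CD49a), a collagen receptor of resident cells, was near the floor of the table at 0.27, with 27.6% of CD8_Effector cells and 54.0% of other cells and an adjusted p-value of 1. The residence genes *Cd69*, *Itgae* and *Cxcr6* were not listed for CD8_Effector. Neither were *Cd44*, *Cxcr3*, *Il2rb*, *Ccr2*, *Il18r1*, *Rgs1* and *Rgs2* of the same list, and *Il2rb* was listed for CD8_Naive at 0.26.

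More genes of the naive and central memory list were listed for CD8_Naive than for CD8_Effector. CD8_Effector listed 5 of 19 (median 0.78) and CD8_Naive 13 (median 1.35), including those 5. CD8_Naive also listed more of all features (9.90% against 4.70%), so nothing is read from the ratio of these counts. The medians cover different genes and are not compared either. *Lef1*, a transcription factor of naive T cells, was at 0.26 in CD8_Effector (60.6%, adjusted p-value 1) and 1.88 in CD8_Naive (95.9%). *Dapl1* was at 0.54 (34.0%) and 2.80 (69.1%). *S1pr1*, the receptor for exit from lymph nodes, was at 0.78 (62.6%) and 1.10 (83.2%). In contrast, *Klf2*, a transcription factor that maintains *S1pr1* in circulating T cells, was at 1.19 (98.0%) and 1.18 (99.5%), and *Ly6c2* at 1.48 (71.4%) and 1.27 (81.9%). *Ly6c2* has a near-identical neighbour, *Ly6c1*, that may share its reads. *Ccr7* (2.62), *Rgs10* (1.67), *Actn1* (1.54) and *Cmah* (1.5) were among the leading genes listed for CD8_Naive and not for CD8_Effector. *Ccr7*, encoding a receptor for homing to lymph nodes, had a share of 95.9% in CD8_Naive.

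In all, 49 genes were listed for both CD8 types, which is 52.1% of the CD8_Effector genes and 24.7% of the CD8_Naive genes. Another 45 were listed for CD8_Effector and not CD8_Naive, and 149 for CD8_Naive and not CD8_Effector. The comparisons share nearly all of their other cells, and each CD8 type is among the other cells of its counterpart, so these overlaps carry no test. Of the 49 genes, 31 had the larger log2 fold change in CD8_Effector and 18 in CD8_Naive, and 27 differed by less than 0.25. The order of the shares was the opposite, with a larger share of cells in CD8_Naive for 38 genes and in CD8_Effector for 11. *Cd8b1* was listed at 3.15 and 3.45 and *Cd8a* at 2.51 and 2.41. In cells of neither CD8 type, *Cd8b1* still had a value above 0 in 61.3%. *Cd6* went from 1.82 (74.4%) in CD8_Effector to 0.98 (61.4%) in CD8_Naive, and *Nkg7* from 1.84 to 0.59. *Cd3d* was lower in CD8_Effector, with 1.06 (91.1%) against 1.67 (99.8%). *Pou2f2*, which encodes the transcription factor OCT2, had shares of 45.8% in CD8_Effector and 32.7% in CD8_Naive. Among the other genes with the widest gaps in share were *Ipcef1*, *Gramd3*, *Dnah8* and *Themis*, all smaller in CD8_Effector, with differences of -21.5, -19.3, -12.0 and -11.6 percentage points, respectively.

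**Figure D3:**
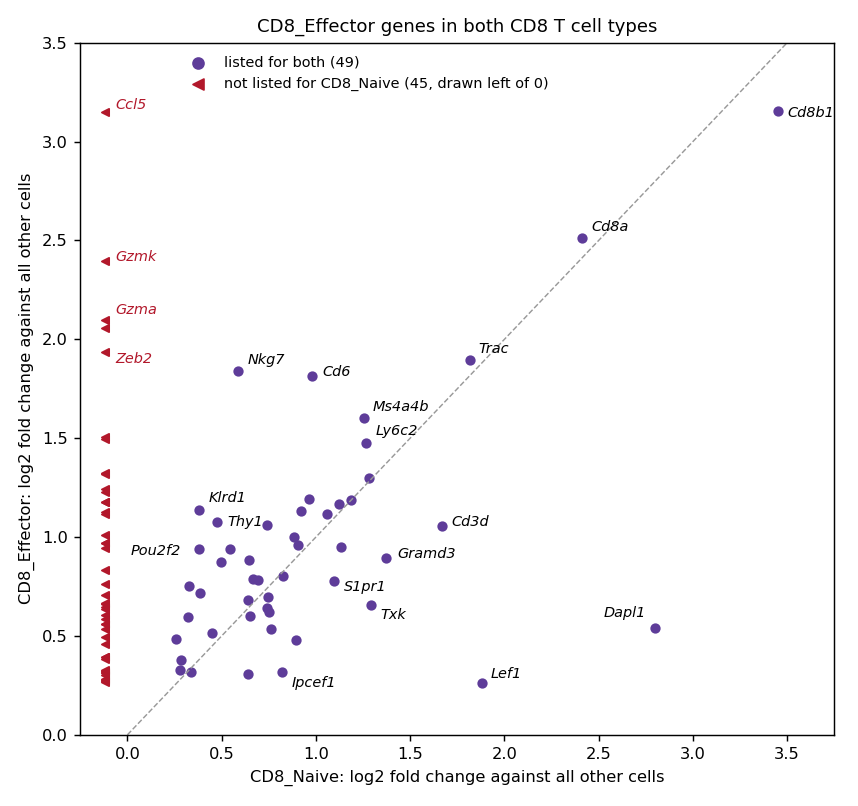
Deposited log2 fold change of each CD8_Effector gene against all other cells, in CD8_Naive (x axis) and CD8_Effector (y axis), with equal values on the dashed line and genes not listed for CD8_Naive drawn left of 0. *Cd8b1*, *Cd8a* and *Trac* lie near the line, *Nkg7* and *Cd6* above it and *Dapl1* and *Lef1* below it.

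**Figure D4:**
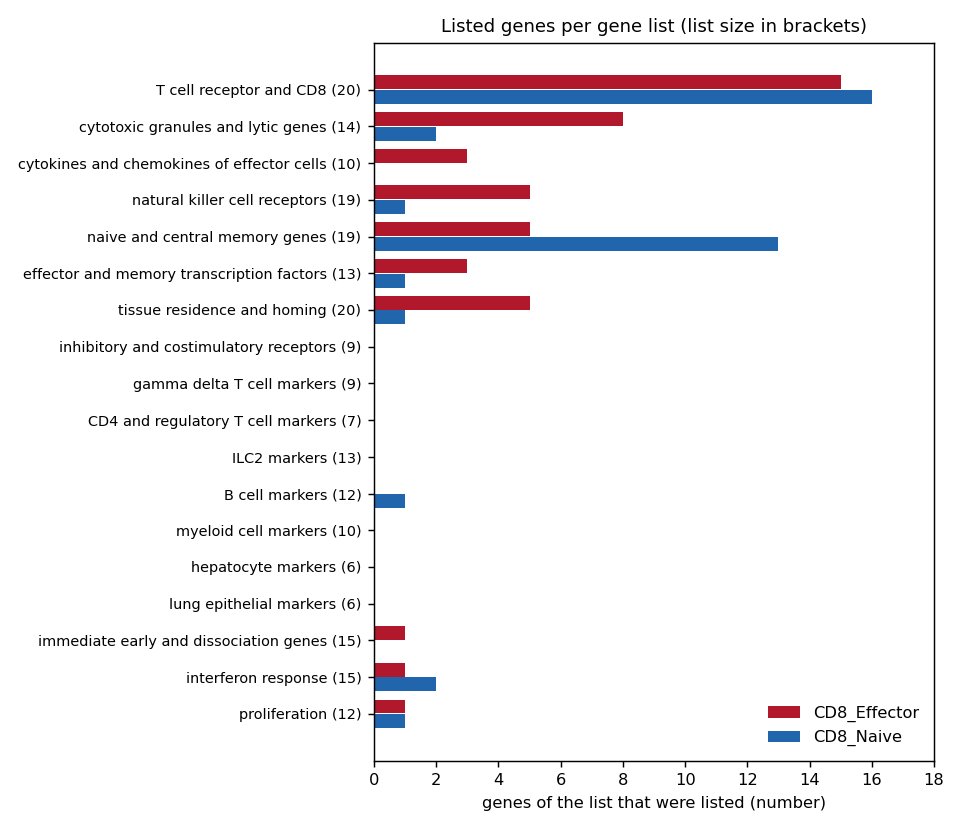
Number of genes of each list (list size in brackets) that were listed for CD8_Effector and for CD8_Naive. Both types listed nearly the same number of T cell receptor and CD8 genes (15 and 16), 8 and 2 lytic genes and 5 and 13 naive and central memory genes, where the types listed 4.70% and 9.90% of all features.

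Few of the 94 genes belonged to CD8_Effector alone. The median gene was listed for 5 other types and the most widely listed for 9. *Cenpv*, with a log2 fold change of 0.33 and a smaller share than other cells (29.6% and 33.5%), was the 1 gene listed for no other type. Another 7 had a single further type, namely *Cd8a* (CD8_Naive), *Gzmk* and *Stard10* (NK), *Cx3cr1* (Basophil), *Rpa2* (Prolifelation cell), *Hsph1* (ILC1_ILC3) and *Ttc39c* (gdT_TypeIII_CD163l1). These names were read off after their values were seen. CD8_Effector had the highest log2 fold change of all listing types for 20 genes and the highest or tied share for 7, both counts including *Cenpv*, which had no other type to be compared with. The 7 genes were *Gzmk*, *Trac*, *Cd6*, *Itga4*, *Cx3cr1*, *Cenpv* and *Trbc1*, the last tied with gdT_Naive at 79.3%. Side by side, 57 of the 94 genes (60.6%) were also listed for gdT_TypeI, 51 (54.3%) for NK, 40 (42.6%) for ILC1, 38 (40.4%) for CD4 and 37 (39.4%) for gdT_Naive. Of the 2000 features these types listed 7.25% (gdT_TypeI), 9.85% (NK), 7.25% (ILC1), 6.55% (CD4) and 7.45% (gdT_Naive). As shares of the other lists these were 39.3% of 145 for gdT_TypeI, 25.9% of 197 for NK and 27.6% of 145 for ILC1. No gene was shared with the types ILC2 and gdT_TypeII, which listed 136 and 28 of the 2000 features. Nothing is read from this absence. These comparisons also share their other cells.

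Averages and shares did not go together for many genes. In 57 of the 94 listings the share of cells above 0 was smaller in CD8_Effector than in all other cells although the average was higher. The same count was not made over all 4422 listings, so it is not read as a trait of CD8_Effector. Some listings of other types showed it too, such as *Cd6* in CD8_Naive (61.4% and 66.2%) and *Itgb1* in CD4 (58.4% and 69.9%). Others did not, such as *Lef1* in CD8_Naive (95.9% and 68.9%). Within CD8_Effector the counts were as follows. The smaller share held for 8 of the 33 genes with a log2 fold change of 1 or more (*Klrc2*, *Slamf7*, *Cd5*, *Ifng*, *Kcnj8*, *Themis*, *Sh2d1a* and *Klrk1*) and for 21 of the 22 genes under 0.5. It also held for 28 of the 29 genes with an adjusted p-value of 0.05 or more, for 27 of the 49 genes shared with CD8_Naive and for 30 of the 45 that were not. In contrast, 15 genes had a share at least 10 percentage points above that of other cells. They were *Cd8b1*, *Cd8a*, *Trac*, *Cd3e*, *Cd3g*, *Gzma*, *Gzmk*, *Nkg7*, *Ccl5*, *Zeb2*, *Klf2*, *Ms4a4b*, *Ms4a6b*, *Gimap7* and *Gimap4*.

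**Figure D5:**
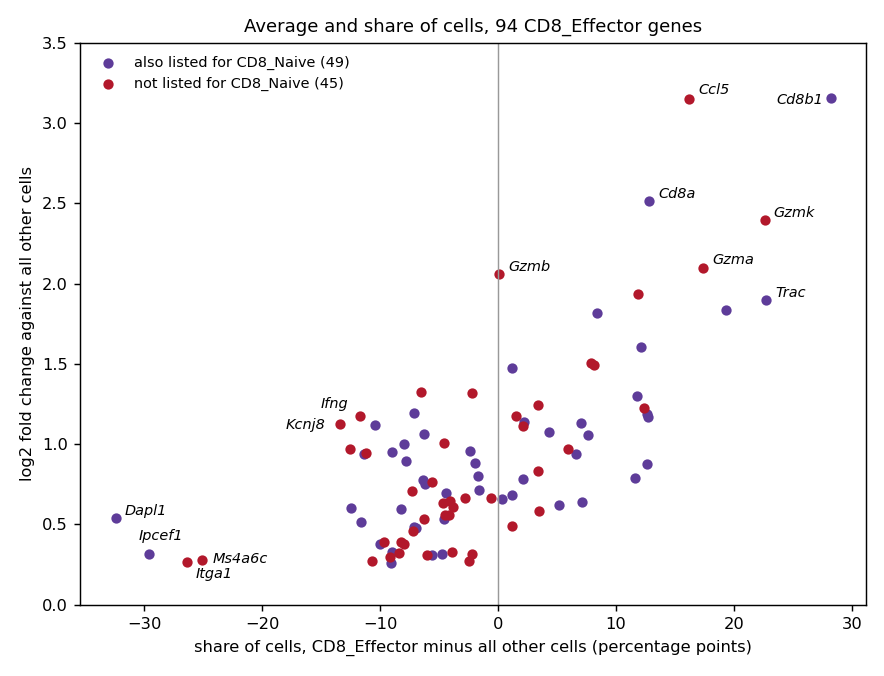
Log2 fold change (y axis) against the difference in share of cells between CD8_Effector and all other cells (x axis, percentage points) for the 94 CD8_Effector genes, coloured by whether CD8_Naive also listed them. Genes left of 0, such as *Dapl1*, *Itga1* and *Ifng*, had a higher average but a smaller share in CD8_Effector.

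Other genes with large values, most of them on none of the lists, were *Ms4a4b* (1.60, 99.5% of cells) and *Ms4a6b* (1.30), membrane proteins of lymphocytes, and *Gimap7* (1.23), a GTPase of the lymphocyte GIMAP family. *Ms4a4b* was highest in CD8_Effector of its 8 listing types, although its share was 87.4% in the other cells. *Psmb9*, an immunoproteasome subunit, was at 0.78 and also highest in CD8_Effector of its 5 listing types. *Esm1*, known as an endothelial gene, was at 1.18 (43.8% and 42.3%). It lies at chr13:113209659-113218098 on the plus strand (GRCm38, GENCODE M21), inside the annotated span of *Gzmk* on the minus strand (chr13:113171608-113225908), whereas by the RefSeq start used for its promoter *Gzmk* does not reach *Esm1*. Whether counting used the strand was not given in the sources used here. *Esm1* was also listed for CD4 (1.15), Treg (0.79) and gdT_TypeIII_ITGAE (0.38), none of which listed *Gzmk*, and not for Endothelium cell. NK, which listed *Gzmk*, did not list *Esm1*. Whether reads of both genes were confused was not tested. *Kcnj8*, a potassium channel subunit, was at 1.13 with an adjusted p-value of 1. Of the 12 proliferation genes 1 was listed, the histone variant *H2afz* (0.59), below Prolifelation cell (1.92) and NK (1.27). Of 15 interferon response genes only *Ly6e* (0.75) was listed, and of 15 immediate early genes only *Ier2* (0.32). *Esm1*, *Kcnj8* and *Psmb9* were picked after their values were seen.

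Some CD8_Effector genes were also listed for subclusters of the cells kept as ILC2s, in the separate subcluster table, where each subcluster was set against all other ILC2s. Subcluster 4 listed 24 of the 94 genes (25.5%), with 802 listings or 5.59% of the about 14354 features counted for that table. Its genes included *Ccl5* (log2 fold change 1.79, 62.6% of cells and 41.8% of other ILC2s), *Nkg7* (1.77, 30.5% and 11.7%), *Gzma* (1.53, 25.8% and 9.7%) and *Cenpv* (0.32). Subcluster 4 was the only subcluster that listed *Gzma*. Subcluster 5 listed 26 genes (27.7%), with 1000 listings or 6.97% of the features, and its genes included *Ms4a4b* (3.72, 49.6% and 10.2%), *Txk* (3.0), *Cd3e* (2.36, 32.0% and 4.7%), *Cd28* (2.25) and *Lck* (1.80). Subcluster 1 listed 23 (24.5%), with 363 listings or 2.53% of the features, and its genes included *Itgb1* (1.57), *Rasgrp2* (1.32), *Klf2* (1.17) and *S1pr1* (1.05). The number of features comes from the ratio of the deposited p-values, as above. The 94 genes come from the 2000 features of the cell type table, so the percentages of the subcluster table are not taken over the same features. These genes were read off after their values were seen.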

How the data were processed

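The cell type table and the ILC2 subcluster table, each pooled over 4 libraries, were used as deposited. Per the labels and methods, the authors aligned reads with Cell Ranger to mm10, removed doublets and dead cells by flow cytometry and excluded cells with fewer than 500 genes. In Seurat they scaled each cell to 10000, log transformed, selected variable genes, scaled and centered the merged values and clustered. No computational doublet caller was described. The deposited log2 fold changes compare average values of a cluster with those of all other cells. The deposited shares are the fraction of cells above 0, printed as percentages. The deposited p-values came from tests over cells and served only as a filter. The tables had 0 columns of values per library, so depth is unknown and groups were not compared.

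Listings were counted, and sizes of types were fitted by least squares to the shares, with Python 3.11.15, numpy 2.4.6 and pandas 2.3.3 (figures with matplotlib 3.10.9). On simulated data over 1679 genes the largest error of a size in the fit of the 21 types was 0.0215 percentage points. The simulated sizes and shares were drawn at random and did not copy the small size and share differences of CD8_Effector, so its error may differ. All 94 symbols matched GENCODE M21. The members and the 18 gene lists were chosen with earlier results of these data known. Genes were named if they were on a list, among the 15 largest log2 fold changes with an adjusted p-value under 0.05, among the 10 largest not listed for CD8_Naive, among the 10 widest differences in share between the CD8 types, or among the 5 largest of CD8_Naive alone of the pair. Others are stated as picked later or complete a count, and some genes under this rule are not reported here. Alternatives were a log2 fold change of at least 0.5, an adjusted p-value under 0.05, a larger share than in other cells, and 3 other fits of the sizes.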

Additional observations from a re-analysis of the deposited data

How the results depend on the processing

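No paired analysis was possible because no group had more than 1 library and all 4 were pooled. The limit of 0.5 on the log2 fold change left 72 of the 94 CD8_Effector listings (33 shared with CD8_Naive, 39 not), and an adjusted p-value under 0.05 left 65 (36 shared, 29 not). A larger share than in other cells left 37 (20 shared, 17 not). The count of genes listed for no other type was 4 at the limit of 0.5 (*Gzmk*, *Cx3cr1*, *Stard10* and *Hsph1* in place of *Cenpv*), 1 with the adjusted p-value (*Cenpv*) and 3 with the larger share (*Gzmk*, *Cd6* and *Cx3cr1*). The 57 listings with a smaller share became 36 at that limit and 29 with the adjusted p-value. Under the 3 other fits the size of CD8_Effector ranged from 0.6285% to 0.6648% and that of CD8_Naive from 2.699% to 2.714%. Depth, replicates and organs could not be assessed from pooled tables.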
